A study of Drosophila melanogaster with 2 samples.

Results

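Rough is a homeodomain transcription factor, encoded by *ro* and best known from patterning of the fly compound eye. The genes described here are 10 *Drosophila melanogaster* genes of segment polarity, Wnt and Hedgehog signalling: *wg*, *hh*, *fz*, *ptc*, *nkd*, *ci*, *en*, *inv*, *mid* and *H15*. They were chosen by name, with earlier results of these data known, out of 13968 protein-coding genes on the named chromosome arms. A ChIP-seq peak was attached to one of them when its summit lay in the gene body or within 10 kb of it, or when the gene had the nearest protein-coding start. The replicates together gave 2 thresholded lists, a larger one of 1969 peaks (the optimal set) and a smaller one of 1627 (the conservative set). By the rule, 13 of the 1969 optimal-set peaks were attached to 6 of the 10 genes, against 36.0% of all protein-coding genes with an attached peak. All coordinates are on dm6.

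Segment polarity genes keep the cells of each embryonic segment different from their neighbours. Cells that make the homeodomain protein Engrailed secrete Hedgehog, and the cells next to them secrete the Wnt protein Wingless. Each signal maintains the source of the other, and the same genes are used again in appendages, the heart, the nervous system and the eye. Homeodomain proteins as a class bind short AT-rich words around the core TAAT.

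The material was whole embryos of the strain ro-GFP aged 0 to 24 h, carrying an insertion that encodes Rough fused to eGFP. Chromatin was sheared by sonication to 200 to 800 bp and precipitated with an antibody against GFP per the sample descriptions, whereas the antibody field of the labels reads ro. There was 1 group with 2 biological replicates, without an input or mock sample among the data analysed here. The whole embryo over this age range mixes all cell types and stages, so a peak cannot be assigned to a cell type. The lists give no read totals, and depth is therefore unknown. Peaks were listed by the irreproducible discovery rate (IDR), and replicate 1 alone had 1484 thresholded peaks and replicate 2 alone had 1113. The authors' signal value is the height measure used below. Its median over the optimal set was 101.7 (2.268 to 1265).

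The sequences under part of the peaks are given first. That of the *ptc* peak, which both replicates' thresholded lists held, is not shown. The *H15* and *hh* sites shown were in neither replicate's thresholded list. They cover up to 75 bp on each side of the summit on the plus strand of the RefSeq Release 6 assembly, and capitals mark TAAT read on either strand (TAAT or ATTA). The first is the strongest peak of the group, the next 5 are non-coding sites at *nkd*, *mid* and *wg*, and the last pair are the sites in coding sequence, where no TAAT occurred.
fz intron, strongest peak (chr3L:14303983-14304094): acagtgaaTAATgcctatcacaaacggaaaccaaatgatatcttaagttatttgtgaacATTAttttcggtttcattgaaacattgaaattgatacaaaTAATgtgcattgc
nkd promoter (chr3L:19045565-19045715): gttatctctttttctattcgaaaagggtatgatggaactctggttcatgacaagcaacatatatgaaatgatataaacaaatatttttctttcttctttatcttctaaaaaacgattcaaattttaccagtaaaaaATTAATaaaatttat
nkd intron near the start (chr3L:19042614-19042764): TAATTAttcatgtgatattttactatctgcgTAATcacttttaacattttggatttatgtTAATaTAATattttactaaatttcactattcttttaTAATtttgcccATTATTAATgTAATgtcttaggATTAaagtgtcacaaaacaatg
mid downstream (chr2L:5476811-5476961): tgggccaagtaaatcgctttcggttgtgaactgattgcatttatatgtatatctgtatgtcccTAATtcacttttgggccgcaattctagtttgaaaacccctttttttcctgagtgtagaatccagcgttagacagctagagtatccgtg
wg upstream (chr2L:7296037-7296187): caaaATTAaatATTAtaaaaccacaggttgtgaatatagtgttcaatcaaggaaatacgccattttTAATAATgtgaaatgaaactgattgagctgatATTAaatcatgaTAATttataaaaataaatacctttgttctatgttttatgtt
wg intron (chr2L:7313588-7313738): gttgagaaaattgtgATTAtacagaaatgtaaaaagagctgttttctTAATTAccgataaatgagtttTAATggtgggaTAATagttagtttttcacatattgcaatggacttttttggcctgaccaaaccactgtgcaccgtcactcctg
H15 coding exon (chr2L:5415518-5415668): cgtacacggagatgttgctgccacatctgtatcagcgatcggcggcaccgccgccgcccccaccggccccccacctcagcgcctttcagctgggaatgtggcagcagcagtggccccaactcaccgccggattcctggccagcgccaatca
hh coding exon (chr3R:23141062-23141212): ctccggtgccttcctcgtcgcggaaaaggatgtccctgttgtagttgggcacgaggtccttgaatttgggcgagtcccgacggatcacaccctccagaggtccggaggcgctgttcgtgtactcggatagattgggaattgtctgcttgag
In these windows the *nkd* intron site held 11 overlapping or separate matches to TAAT and the upstream *wg* site held 6. The *wg* intron site held 5. TAATTA, the palindromic form of the word, occurred 1 time each in the *nkd* intron window, at its edge, and in the *wg* intron window. The promoter site of *nkd* held 2 and the *mid* site 1. The strongest *fz* site held 3. Among sites not shown, the *nkd* intron site of signal value 116.5 held 5 and the *nkd* site of signal value 68.5 held 3. The other *fz* sites held 2, 1 and 1. Matches in windows of this width were not counted over all optimal-set peaks, so these numbers have no background.

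Thresholded peaks were found at the receptors *fz* and *ptc*, the ligand gene *wg*, the feedback inhibitor gene *nkd* and both T-box genes, *mid* and *H15*. None was attached to *en*, *inv*, *hh* or *ci* in the optimal set. By the window rule alone, 6 of the 10 genes had an optimal-set peak, against 35.6% of all protein-coding genes. By the nearest start alone the count was also 6 of 10, against 10.5% of all protein-coding genes. Long genes have wide windows: the 10 genes had a median length of 13026 bp (4205 to 94297), against 2164 bp over all protein-coding genes. Among genes at least as long as the shortest of the 10, 43.9% had a peak by the window rule. This cut is a lower limit only, so that background is not matched to the lengths of the 10 genes. The part of gene length in the counts by nearest start was not tested.

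**Figure D1:**
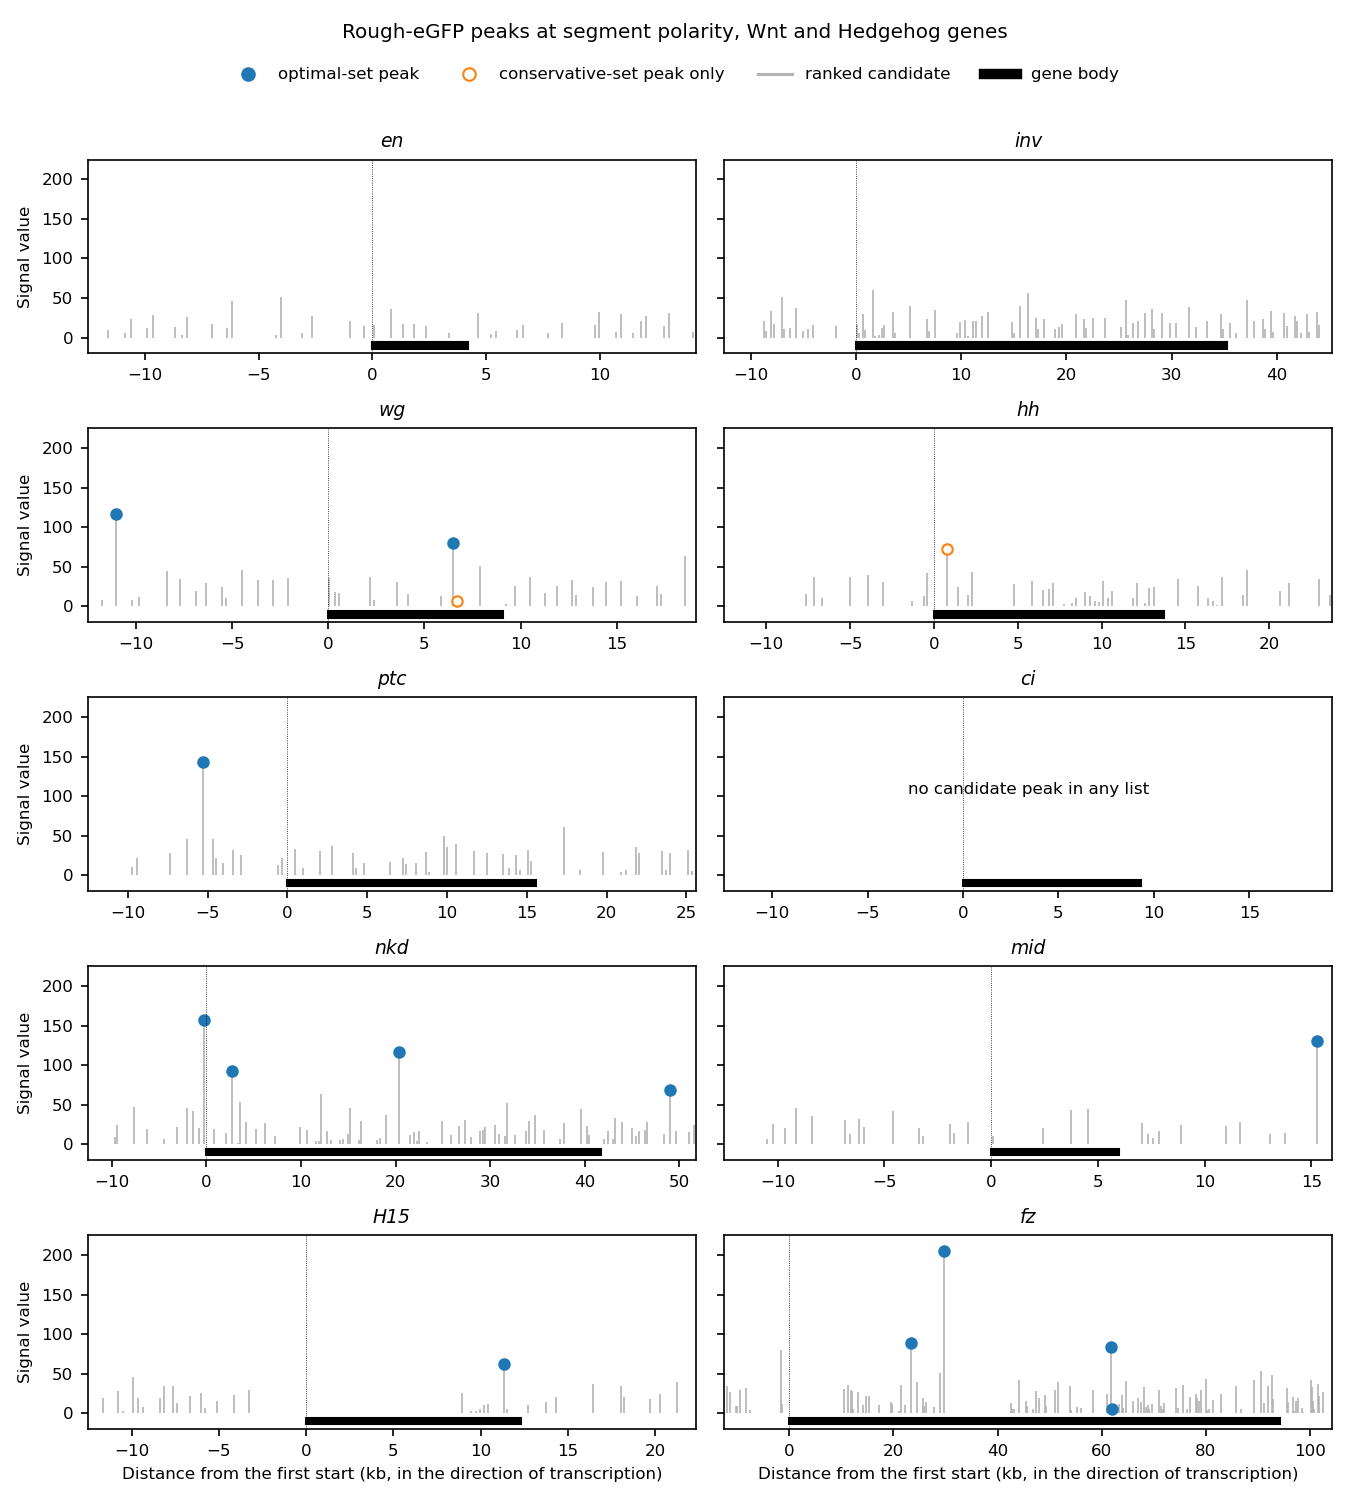
Positions and signal values of peaks around each of the 10 genes. The horizontal axis is the distance of the summit from the first annotated start in kb, in the direction of transcription, and the vertical axis is the authors' signal value. Black bars are gene bodies, grey lines are candidates of the ranked list over both replicates, filled circles are optimal-set peaks and open circles are peaks of the conservative set alone. *nkd* and *fz* have 4 optimal-set peaks each, *en*, *inv*, *hh* and *ci* have none, and *ci* has no candidate.

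Among the ligands, *wg* encodes Wingless and lies at 2L 7307159 to 7316265 on the plus strand (FBgn0284084). The signal value of its stronger optimal-set peak, at 2L 7295922 to 7296301, was 117.1, at rank 775 of 1969 with a q value of 0.0415. This summit was intergenic, 11047 bp upstream of the start. It was attached as nearest start only, just outside the 10 kb window. At this place replicate 1 had a signal value of 73.5 (rank 709 of its 93400 candidates) and replicate 2 had 32.6 (rank 3119 of its 121684). The second peak, at 2L 7313473 to 7313852, lay in an intron 6504 bp downstream of the start, with a signal value of 80.4, rank 1408 and a q value of 0.158. Its signal value was 50.5 in replicate 1 and 35.2 in replicate 2. Both *wg* peaks were in the thresholded list of replicate 1 and not in that of replicate 2. Both were also in the conservative set, which listed a further *wg* peak that overlapped the intronic one and had a signal value of only 6.421. *Wnt6*, another Wnt ligand gene that lies downstream of *wg* and was picked out here after its values were seen, had a promoter peak 300 bp upstream of its start with a signal value of 64.9.

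The second ligand gene, *hh*, encodes Hedgehog and lies at 3R 23128169 to 23141906 on the minus strand (FBgn0004644). It had a peak in the conservative set and none in the optimal set. The peak lay at 3R 23140947 to 23141326, in coding sequence 769 bp downstream of the start, and ranked 1395 of 1627 with a signal value of 73.0. The replicates were alike here, with signal values of 37.0 in replicate 1 (rank 2405) and 37.1 in replicate 2 (rank 2024). Neither replicate's own thresholded list held it. Its IDR was 0.00647 in the ranking behind the conservative set and 0.0114 in that behind the optimal set, on either side of the threshold of 0.01. The conservative set was not a subset of the optimal set, since 108 of its peaks overlapped none there. The closest optimal-set peak to the *hh* gene body was 15.3 kb away, nearest to *Cow*.

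The receptor gene *fz* encodes Frizzled, a transmembrane receptor of Wnt proteins that also acts in planar cell polarity. It lies at 3L 14274343 to 14368639 on the plus strand (FBgn0001085) and is the longest of the 10 genes. It carried the strongest peak of the group, at 3L 14303983 to 14304120, with a signal value of 204.6, rank 288 and a q value of 0.0343. The peak was only 138 bp wide, against a list median of 380 bp, and lay in an intron 29676 bp downstream of the start. Replicate 1 had a signal value of 129.9 (rank 256) and replicate 2 had 77.4 (rank 450), and both thresholded lists held the peak. A further 3 intronic peaks had signal values of 88.8, 83.6 and 5.749, at 23333, 61773 and 61979 bp from the start. The last 2 of these overlapped each other. The peak of signal value 88.8 was in the list of replicate 1 alone, and the overlapping pair was in neither replicate's list. For 3 of the 4 *fz* peaks, *CG13482* and not *fz* had the nearest protein-coding start. Replicate 1 alone also listed a peak 1630 bp upstream of *fz*, with a signal value of 57.2, which was not in the optimal set.

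The second receptor gene, *ptc*, encodes Patched, which binds Hedgehog and whose transcription is itself a standard readout of Hedgehog signalling. It lies at 2R 8649649 to 8665223 on the plus strand (FBgn0003892). Its peak at 2R 8644189 to 8644568 was intergenic, 5270 bp upstream of the start, with a signal value of 142.7, rank 546 and a q value of 0.0317. The replicates were close at this site, with signal values of 76.3 in replicate 1 (rank 677) and 64.2 in replicate 2 (rank 635). Their summits lay 8 bp apart, and both thresholded lists held the peak. Among the 7 genes with a peak in any thresholded list, *ptc* was the one with the same number of attached peaks, 1, in all 4 lists.

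Of the intracellular regulators, *nkd* encodes Naked cuticle, an inhibitor of Wingless signalling that binds Dishevelled and is induced by the signal it limits. It lies at 3L 19003741 to 19045449 on the minus strand (FBgn0002945). With 4 attached optimal-set peaks, it and *fz* stood among the 3.67% of protein-coding genes with 3 or more. That share is over genes of all lengths, with a median of 2164 bp, and is not matched to these long genes. *nkd* spans 41709 bp and *fz* 94297 bp. The conservative set attached 3 peaks to *nkd* and 1 to *fz*. Its strongest peak, at 3L 19045450 to 19045829, was the one promoter peak of the 10 genes, 191 bp upstream of the start, with a signal value of 156.5, rank 462 and a q value of 0.0275. Replicate 1 had a signal value of 90.8 (rank 491) and replicate 2 had 52.8 (rank 937), and both thresholded lists held it. The intronic peaks at 20406 and 2760 bp from the start had signal values of 116.5 and 93.3, and both were in the list of replicate 1 alone. At the first of them the signal value was 64.2 in replicate 1 and 42.7 in replicate 2, with an IDR of 0.0101 in replicate 2, just over the threshold. The fourth peak had a signal value of 68.5 and lay 7314 bp beyond the end of *nkd*, inside *CG18135* and 618 bp from a start of that gene. There replicate 2 was the higher one, with a signal value of 46.2, and replicate 1 had 34.8.

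The other regulator, *ci*, encodes Cubitus interruptus, the zinc finger transcription factor that acts at the end of the Hedgehog pathway. It lies on chromosome 4 at 47710 to 57041 on the minus strand (FBgn0004859). No peak or candidate in any of the 8 lists had its summit in *ci* or within 10 kb of it. Chromosome 4 had few candidates at all: the ranked list held 62 on it, and 86.2% of the 80 protein-coding genes there had none in their window, against 2.03% of all protein-coding genes. The single optimal-set peak on chromosome 4 lay 750.5 kb from *ci*. The lack of a peak at *ci* therefore cannot be told apart from the low number of candidates on the whole chromosome.

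The neighbouring genes *en* and *inv* encode the related homeodomain proteins Engrailed and Invected, which mark posterior compartments. *en* lies at 2R 11524006 to 11528210 on the minus strand (FBgn0000577) and *inv* at 2R 11474465 to 11509695 on the plus strand (FBgn0001269). Neither had a peak in any of the 4 thresholded lists, although 37 candidates of the ranked list lay in the window of *en* and 83 in that of *inv*. The strongest candidate of *en*, at 2R 11532036 to 11532415, was intergenic, 4016 bp upstream of the start, with a signal value of 51.5, rank 4980 of 144610 and an IDR of 0.883. The strongest of *inv*, at 2R 11475897 to 11476276, was a promoter candidate 379 bp downstream of a start, with a signal value of 60.4, rank 2845 and an IDR of 0.0228. The replicates did not pick the same site as strongest in either gene. For *inv*, replicate 1 put it at this promoter (39.9, rank 2063) and replicate 2 in an intron 24943 bp from a start (29.4, rank 4878). For *en*, replicate 1 had its strongest candidate downstream of the gene (24.2, rank 9454) and replicate 2 had it 6105 bp upstream of the start (29.2, rank 5029). The closest optimal-set peaks lay 65.6 kb from *en*, nearest to *tou*, and 66.1 kb from *inv*, nearest to *CG30026*.

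The other transcription factor pair, *mid* and *H15*, encodes related T-box proteins with roles in the heart, the nervous system and ventral leg fate. *mid* lies at 2L 5461639 to 5467610 on the plus strand (FBgn0261963). Its peak at 2L 5476696 to 5477075 was intergenic, 9276 bp beyond the end of the gene and so just inside the window. It had a signal value of 130.7, rank 632 and a q value of 0.0392. This was the least even of the 13 peaks, with a signal value of 92.9 in replicate 1 (rank 468) and 27.8 in replicate 2 (rank 6319). It was in the list of replicate 1 and not in that of replicate 2. The conservative set did not hold it, with an IDR of 0.0117 in that ranking against 0.000411 in the ranking behind the optimal set.

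*H15* lies at 2L 5404280 to 5416593 on the plus strand (FBgn0016660). Its peak at 2L 5415403 to 5415782 lay in coding sequence, 10960 bp downstream of a start, with a signal value of 62.2, rank 1808 and a q value of 0.63. The signal value was 28.4 in replicate 1 and 27.3 in replicate 2, and neither thresholded list held the peak. Its IDR of 0.00882 was just inside the threshold, while that of the *hh* site in the same ranking was just outside. At *H15* the conservative set and both replicates' own lists had no peak.

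**Figure D2:**
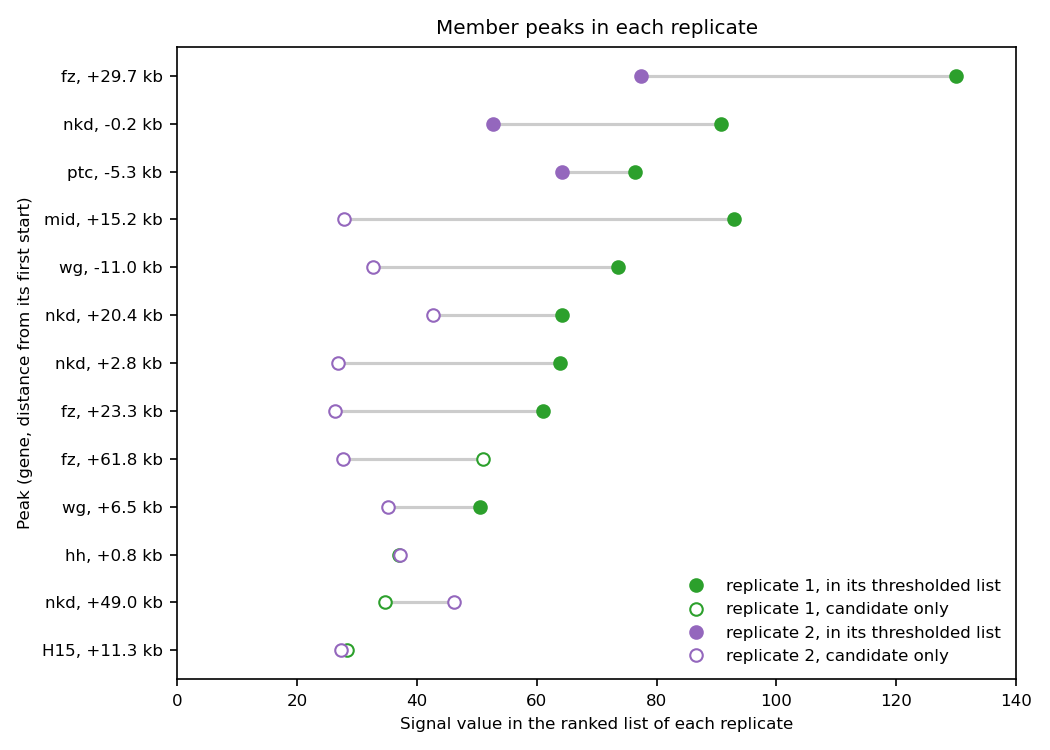
Signal values in each replicate at the attached peaks. Each line of the plot is 1 peak, named by its gene and the distance of its summit from the first annotated start in kb, and the horizontal axis is the signal value in the replicate's own ranked list. Filled circles are in that replicate's thresholded list and open circles are candidates only. The *fz*, *nkd* and *ptc* peaks at the top are filled in both replicates, and all others are open in replicate 2. The *hh* peak is from the conservative set, and the weak *fz* peak that overlaps a stronger one is not drawn apart from it.

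For 3 of the 10 genes an attached peak was in the thresholded lists of both replicates. One peak each of *fz*, *nkd* and *ptc* overlapped a thresholded peak of both replicates, against 19.5% of all protein-coding genes with such an attached peak. Counted over peaks, these were 3 of the 13 attached peaks, against 39.6% of the 1883 optimal-set peaks on the named arms. The list of replicate 1 held 9 of the 13, against 67.0% of all, and that of replicate 2 held 3 of the 13, against 52.0% of all. A further 4 were in neither list. The attached peaks leaned to replicate 1. The signal value was higher there at 12 of the 13 peaks, with a median ratio of replicate 1 to replicate 2 of 1.72, against 67.5% of 1827 optimal-set peaks and a median ratio of 1.23. The overlapping *fz* pair shares 1 candidate in each replicate and so counts 2 times in these figures. Read by list, 5 of the 10 genes had a window peak in replicate 1, against 28.4% of all protein-coding genes, and 3 had one in replicate 2, against 25.6%. By nearest start the counts were 5 in replicate 1, against 8.05%, and 2 in replicate 2, against 6.7%. In the conservative set 5 of the 10 had a window peak, against 31.6%, and 4 by nearest start, against 8.89%. By either rule it attached 9 peaks to 5 genes, against 32.0% of all protein-coding genes.

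Ranked by its strongest candidate, *fz* stood highest and *en* lowest among the 9 genes that had one. Of all protein-coding genes, 8.91% had a candidate in their window at least as strong as that of *fz*, 13.2% one as strong as that of *nkd*, 15.3% that of *ptc* and 17.1% that of *mid*. For *wg* in its window the share was 30.4%, for *hh* 33.5%, for *H15* 42.7%, for *inv* 44.6% and for *en* 62.9%. In replicate 2 alone *fz* was again first of the 10 at 11.4%, followed by *ptc* at 15.8% and *nkd* at 22.0%. *mid* moved most, with 12.2% in replicate 1 and 59.7% in replicate 2. These shares belong to different sites, since the strongest *mid* candidate of replicate 2 (30.3) lay 5713 bp beyond the end of the gene.

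**Figure D3:**
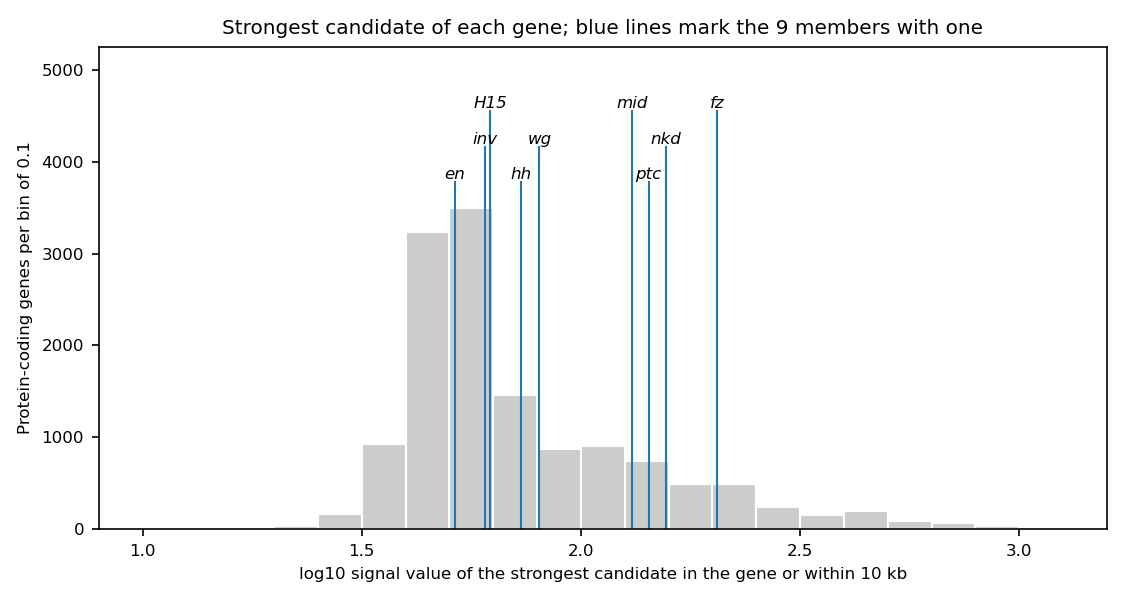
Distribution of the strongest candidate over protein-coding genes. The horizontal axis is the log10 of the signal value of the strongest candidate in the gene or within 10 kb, and the vertical axis is the number of genes per bin of 0.1. Blue lines mark the 9 of the 10 genes with a candidate. *fz*, *nkd*, *ptc* and *mid* sit in the upper tail, and *en* (51.5) sits in the main body of the distribution.

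In strength the attached peaks were ordinary for the list. Their median signal value was 93.3 (5.749 to 204.6), against a median of 101.7 over the optimal set, and 6 of the 13 were above that median. A q value above 0.05 was found at 7 of the 13, against 53.4% of all optimal-set peaks. Per length of DNA, the windows of the 10 genes held 12 optimal-set peaks in 435.8 kb, or 2.75 per 100 kb, against 1.37 per 100 kb over the arms. In the list of replicate 1 the density was 2.07 per 100 kb in the windows and 1.03 over the arms. In the list of replicate 2 they were 0.688 in the windows and 0.747 over the arms, so the higher density was not seen there. Ranked candidates, most of which failed the threshold, stood at 109 per 100 kb in the windows and 102 per 100 kb over the arms.

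By location, the counts of the attached peaks differed from those of the list as a whole. Of the 13 attached peaks, 1 was at a promoter (summit within 500 bp of a start), against 46.1% of all optimal-set peaks. Introns held 8, against 34.7%, intergenic DNA held 3, against 14.5%, and coding sequence held 1, against 2.18%. The introns were those of *fz*, *nkd* and *wg*, apart from the 1 in *CG18135*. Both peaks of the overlapping *fz* pair are counted among the 8. The window rule takes in whole gene bodies, long introns included, and no background of peaks attached to genes of like length was taken. These counts therefore do not separate the peaks from the rule that attached them.

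The words under the summits were close in number to those of all peaks. Within 50 bp of the summit, TAAT on either strand occurred at 10 of the 13 attached peaks, against 76.4% of all optimal-set peaks on the arms. TAATTA, which reads the same on both strands and contains TAAT, occurred at 1 of 13, the *wg* intron site, against 10.2%. TTTATG, on either strand, occurred at 1 of 13, the *nkd* intron site near the start, against 13.3%. GAGAG, on either strand, occurred at 1 of 13, a *fz* intron site, against 9.82%. The median AT content of these windows was 66.3%, against 67.3% over all optimal-set peaks. It ran from 29.7% at *H15* to 79.2% at the *nkd* intron site near the start, and the *hh* site of the conservative set had 40.6%. The 2 sites in coding sequence, at *H15* and *hh*, were the 2 of lowest AT content among these sites and held no TAAT. TAAT was also absent within 50 bp of 2 non-coding summits. These were the *nkd* promoter peak (AT content 74.3%) and the *fz* intron peak of signal value 83.6 (63.4%). The matches are a description of the letters and do not show that Rough contacted them.

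The other genes of the pathways were read by the same rules, from 3 lists of components. These lists were also chosen with earlier results of these data known, and no background of long genes was taken for them. For the Wnt list, 17 of 33 genes (51.5%) had an optimal-set peak by the window rule, against 35.6% of all protein-coding genes, and 8 (24.2%) by nearest start, against 10.5%. In the list of replicate 2 alone, 3 (9.09%) were nearest to a peak, near the 6.7% of all protein-coding genes. For 11 (33.3%) an attached peak was in both replicates' lists, against 19.5%. The strongest was at *gish*, a casein kinase gene, with a signal value of 432.4 and a summit 169 bp upstream of a start. *pygo*, which encodes a nuclear co-factor of Wnt transcription, had 429.0 in its window, at a promoter where *CG1635* had the nearest protein-coding start. *sgg*, the fly GSK3 kinase gene, had 233.4 at a summit 185 bp from a start, and *dsh*, which encodes Dishevelled, had 233.3 in an intron of the neighbouring *CG1737*. The next were *dgo* (156.2, inside *wde*), the glypican gene *dlp* (144.2), *Apc2* of the destruction complex (139.1, nearest to *TBC1d7*) and the planar polarity gene *Vang* (115.4, nearest to *Boot*). All 8 of these peaks were in both replicates' lists. Only *gish* and *sgg* of the 8 had their own start nearest to that peak.

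For the Hedgehog list, 11 of 18 genes (61.1%) had an optimal-set peak by the window rule, against 35.6%, and 6 (33.3%) by nearest start, against 10.5%. By nearest start the count was 2 (11.1%) in the list of replicate 2 alone, against 6.7%. It was 1 gene in the stronger part of the optimal set, against 6.08%, and 1 with q values above 0.05 left out, against 5.66%, so no excess was seen under these 2 settings. For 6 (33.3%) an attached peak was in both replicates' lists, against 19.5%. *CkIalpha*, which encodes a kinase that phosphorylates Ci, had a signal value of 279.5 in its window, in an intron of *Tis11*. *rdx*, which encodes an adaptor for the degradation of Ci, had 218.3 in its own intron, 13242 bp from a start. *smo*, which encodes the transducer Smoothened, had 181.0 at a promoter 9942 bp upstream of its own start. There *CG17075* had the nearest protein-coding start. The others were *botv* (147.3), *dlp* (144.2), *shf* (123.1), *slmb* (114.1) and the Hedgehog co-receptor gene *boi* (92.1, in its own intron). Of these 8, *rdx* and *boi* had the nearest start to their strongest peak, and the peaks of *slmb* and *boi* were not in both replicates' lists. *dlp* and *dally* stand in both the Wnt and the Hedgehog list.

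For the list of the segment polarity circuit and its targets, 13 of 25 genes (52.0%) had an optimal-set peak by the window rule, against 35.6%, and 9 (36.0%) by nearest start, against 10.5%. In the list of replicate 2 alone, 5 of the 25 were nearest to a peak, against 6.7%. For 6 (24.0%) an attached peak was in both replicates' lists, against 19.5%. The strongest was 1 intergenic peak at 2L 3832416 to 3832619 with a signal value of 316.6, shared by the windows of the neighbouring forkhead genes *slp1* and *slp2*. It lay 4307 bp upstream of *slp2*, whose start was nearest. *bowl*, a zinc finger gene of the odd-skipped family, had 289.2 at a summit 214 bp upstream of a start, and 3 of its 4 peaks were in both replicates' lists. The T-box gene *Doc2* had 155.1 at an intergenic site, and *Doc3* shared a second peak with it (129.7). *dpp*, a BMP ligand gene, had 117.4 in an intron 5214 bp from a start, and *Doc1* had 104.9. At *lin* the signal value was 95.1, at a promoter where *CG30349* had the nearest protein-coding start. In these lists, as at the 10 genes, a shared or neighbouring gene often had the nearest start, and the lists were described by counts only, with no test of a set.

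**Figure D4:**
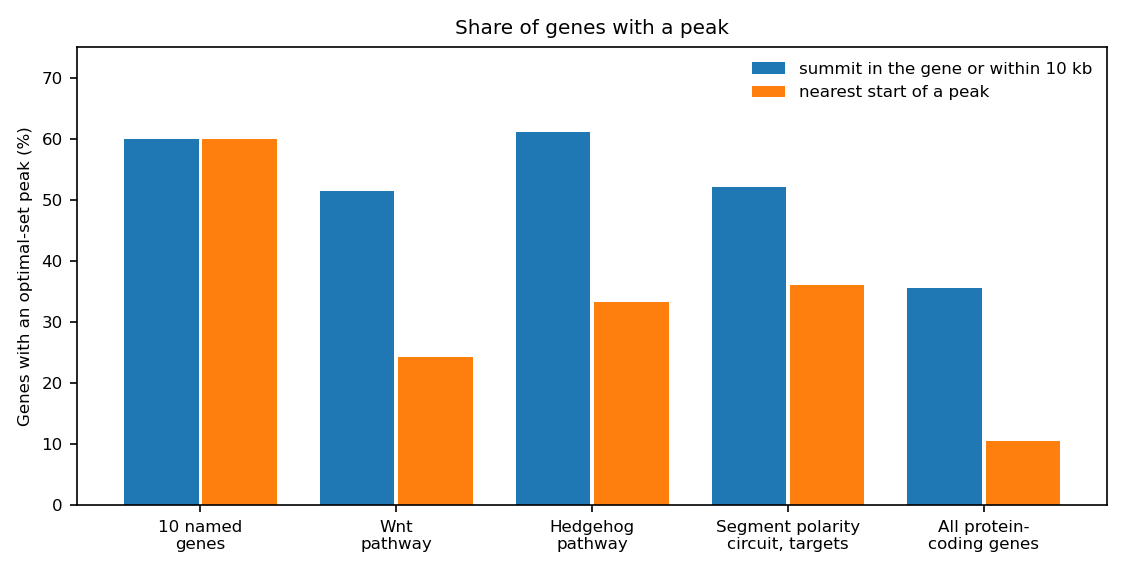
Share of genes with an optimal-set peak in the 10 genes, in the 3 component lists and in all protein-coding genes. The vertical axis is the percentage of genes, starting at 0, with a summit in the gene or within 10 kb (blue) or as the nearest protein-coding start of a peak (orange). The 10 genes stand at 60.0% by either rule, and all protein-coding genes at 35.6% and 10.5%.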

How the data were processed

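Peak lists of Rough-eGFP ChIP-seq on dm6 were used: 4 ranked and 4 thresholded lists, for each replicate and for both together. Per the labels the build is dm6, and no aligner or peak caller is named there. Deposited with each peak were a score (lowest value 830 in the optimal set), the authors' signal value, the deposited −log10 q value (down to -0.0416 on this log10 scale) and, in the ranked lists, the authors' −log10 of the global IDR, at least 2 for each thresholded peak, which is an IDR of at most 0.01. Signal value is the authors' own and ranks peaks within a list. A total of 16 columns of the joint ranked lists matched no sample label and were not used. Depth is unknown, so no counting interval is given. The replicates are separate biological replicates per the labels, and with 1 group no test was possible.

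Peaks were placed by summit, with 86 of the 1969 optimal-set peaks off the named arms left out. Annotation was Ensembl release 115 without transposable elements and pseudogenes, and sequence the RefSeq Release 6 assembly, whose arms were at least as long as the largest peak end. A start is that of any transcript, and nearest starts were taken over protein-coding genes. A peak was in a replicate's list on an overlap of 1 bp, and replicate values are those of the candidate overlapping it. The location order was promoter, 5' UTR, coding sequence, 3' UTR, non-coding exon, intron, intergenic.

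The 10 genes and the lists were chosen with earlier results of these data known. Named are all 10 genes with every attached peak and up to 8 genes of each list by signal. *Wls* was matched by synonym. The background of long genes was chosen after seeing the data. The assignment, tested on simulated data, placed 200 of 200 planted summits with the nearest start and 200 of 200 in the window, and 0 of 200 placed outside it. Software was pandas 2.3.3, numpy 2.4.6 and pysam 0.24.0 under Python 3.11.15, with matplotlib 3.10.9 for figures.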

Additional observations from a re-analysis of the deposited data

How the results depend on the processing

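No paired analysis was possible because there is 1 group and no comparison between groups. Of 72 alternative values of the main counts, 44 stayed within 1.5 times the value given and 28 moved further; the cause was not tested. Leaving out 1 replicate in turn gave 3 to 5 genes by window, 2 to 5 by nearest start and 3 to 10 attached peaks; the low values come from the list of replicate 2 alone. With a window of 50 kb, 20 peaks were attached. By that window 7 of the 10 genes had a peak, against 76.0% of all protein-coding genes, so no excess was seen. At this width 26 of 33 Wnt and 21 of 25 segment polarity genes had a peak, close to the share of all genes. At 2 kb, 7 of 33 Wnt, 7 of 18 Hedgehog and 7 of 25 segment polarity genes had one, against 16.4%. The stronger part by signal left 6 attached peaks, and leaving out q above 0.05 also left 6. By window these settings left 7 and 7 Hedgehog genes and 7 and 6 segment polarity genes, against 23.7% and 22.4% of all genes, so the segment polarity counts were near the background. By nearest start they left 1 and 1 Hedgehog, 4 and 4 segment polarity and 4 and 3 Wnt genes, against 6.08% and 5.66%, which puts the Hedgehog counts at the background. In the conservative set 5 Wnt and 5 segment polarity genes had the nearest start, against 8.89%. Without 1 replicate, the Wnt list ran from 12 to 17 by window and 3 to 8 by nearest start, the Hedgehog list from 8 to 10 and 2 to 5, and the segment polarity list from 9 to 10 and 5 to 7, where the background by window is 28.4% in replicate 1 and 25.6% in replicate 2, and by nearest start 8.05% and 6.7%. TAATTA occurred at 2 of 13 peaks within 100 bp of the summit, against 16.9% of all peaks. With promoters taken as within 1 kb of a start, 2 attached peaks were promoter peaks. The added one was the peak beyond the end of *nkd*, 618 bp from a start of *CG18135*. The share of all optimal-set peaks at 1 kb was not taken. The count of 3 genes with a peak in both replicates did not move under the other overlap rules or at 2 kb.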
